A study of Mus musculus with 2 samples.

Results

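H3K27me3 peaks covered the whole promoter of 302 protein-coding genes in both replicates of a mouse embryonic stem cell line, out of 20807 such genes on the 19 autosomes (1.45%). A promoter was taken here as the window that reaches 1 kb to each side of the gene's annotated 5′ end, and it was wholly covered when merged peaks lay over every base of that window in replicate 1 and again in replicate 2. The promoters were thus selected on the extent of the peaks themselves. Peaks touched the window by at least 1 bp in both replicates at 5579 promoters (26.8%), and the 302 were 5.41% of these. The remaining 5277 are called the other marked promoters below. A further 1237 promoters had a peak in a single replicate, and 13991 had none.

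The line, E14TG2a.4, is male and derives from mice of strain 129/Ola, and the series profiled histone H3 trimethylated on lysine 27 in it by ChIP-seq. Its 2 samples are labelled as biological replicates 1 and 2, they form a single group for which the labels name no treatment, and both come from this one line. No other condition or control sample was analysed here, so the values below are descriptions without tests, and the spread between the replicates is their only error. The number of reads behind each peak list is unknown, and a base without a peak can be a base with too few reads.

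H3K27me3 is written by Polycomb repressive complex 2 and is bound by Polycomb repressive complex 1, and together they keep genes silent. In embryonic stem cells it lies mainly over CpG-rich promoters of genes that act later in development, often beside marks of active promoters, and it is lost from a gene when a lineage turns that gene on. Peaks of a repressive mark do not measure expression. Of 10 marker genes of embryonic stem cells, 0 were wholly covered and 9 had no peak, among them Pou5f1, Nanog and Sox2. The tenth, Esrrb, was partly covered, over 1447 bp in replicate 1 and 741 bp in replicate 2. Of 10 markers of fibroblasts, which can serve as feeder cells, 0 were wholly covered, 5 were partly covered in both replicates (Col1a1, Col1a2, Pdgfra, Pdgfrb and Thy1) and 5 had no peak. With 1.45% of all genes wholly covered, a count of 0 of 10 is near the background in either list. Most genes had no peak in any case, 13991 of 20807, and 26.8% of all genes were marked in both replicates. The counts without a peak are therefore not read as a trait of either list.

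The sequences of the wholly covered promoters ranged from dense in CpG to nearly free of it. The 250 bases just upstream of the start are shown for 4 genes, read 5′ to 3′ along the gene's own strand from the RefSeq GRCm38.p6 genome, with each CpG in capitals. Hoxa5, a HOX gene of the neck and chest region, had the highest ratio of observed to expected CpG of the 302. It lies on the minus strand, the bases shown are chr6:52204588-52204837, and they hold 28 CpG.
Hoxa5: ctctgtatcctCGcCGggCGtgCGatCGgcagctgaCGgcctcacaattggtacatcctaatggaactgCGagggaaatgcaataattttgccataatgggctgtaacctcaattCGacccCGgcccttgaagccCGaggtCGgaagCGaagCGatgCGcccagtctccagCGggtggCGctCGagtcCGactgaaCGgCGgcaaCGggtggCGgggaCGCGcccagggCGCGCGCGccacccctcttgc
A930004D18Rik had the lowest ratio. It lies on the minus strand, and chr2:18037738-18037987 holds 3 CpG.
A930004D18Rik: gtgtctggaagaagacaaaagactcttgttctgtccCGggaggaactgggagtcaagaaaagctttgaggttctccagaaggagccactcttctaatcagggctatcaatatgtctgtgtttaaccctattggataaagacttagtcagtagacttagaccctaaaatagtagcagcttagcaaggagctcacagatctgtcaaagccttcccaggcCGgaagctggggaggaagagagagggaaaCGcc
Lrg1, which encodes a secreted leucine-rich glycoprotein, had the next lowest. On the minus strand, chr17:56122002-56122251 holds 1 CpG.
Lrg1: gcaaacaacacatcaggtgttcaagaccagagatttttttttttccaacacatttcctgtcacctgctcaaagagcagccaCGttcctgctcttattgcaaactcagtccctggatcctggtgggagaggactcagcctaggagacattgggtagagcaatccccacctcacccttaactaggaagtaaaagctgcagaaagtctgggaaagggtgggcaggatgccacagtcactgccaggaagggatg
H2-Q10, a class I histocompatibility gene, came nearest to whole cover without reaching it. On the plus strand, chr17:35469839-35470088 holds 12 CpG. It belongs to a family of similar genes, and the placing of reads among them was not tested.
H2-Q10: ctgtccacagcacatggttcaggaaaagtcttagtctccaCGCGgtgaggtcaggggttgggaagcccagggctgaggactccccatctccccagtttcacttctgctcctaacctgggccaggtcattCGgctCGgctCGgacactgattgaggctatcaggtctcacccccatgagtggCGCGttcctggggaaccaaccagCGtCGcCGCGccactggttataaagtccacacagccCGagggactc

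The rule asks for a peak or touching peaks at least as long as the window, so long peaks at the 302 are given by it. Every one of the 302 windows lay inside a single peak in each replicate, which the rule requires unless peaks touch or overlap. Of the other marked promoters, which the rule does not bind, 1402 (26.6%) had 1 peak in both. Peaks over the 302 windows had a median length of 4634.5 bp in replicate 1 (2132 to 17399 bp) and 4211 bp in replicate 2 (2089 to 15665 bp). All autosomal peaks had medians of 547 bp and 373 bp. Peaks at least as long as the window numbered 4792 in replicate 1 and 4043 in replicate 2, and 294 of them in each replicate held a wholly covered promoter (6.14% and 7.27%). Most long peaks thus lay elsewhere, and 2446 in replicate 1 and 2084 in replicate 2 touched no promoter marked in both.

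The rule was met more often in replicate 1, at 553 promoters, than in replicate 2, at 370. The 302 were 54.6% of the first number and 81.6% of the second. The 251 promoters that were whole in replicate 1 alone still had a median of 1897 bp covered in replicate 2, and 51 of them had under 1801 bp. Daglb, a diacylglycerol lipase gene, had the fewest at 765 bp, followed by Insl3, which encodes a hormone of testis descent, at 1060 bp. Eomes, a T-box regulator of trophoblast and mesoderm, had 1446 bp. The 68 that were whole in replicate 2 alone had a median of 1916 bp in replicate 1, and 4 had under 1801 bp, the fewest at the glycosyltransferase gene B3gnt3 with 1315 bp. Where the replicates disagreed, they mostly did so over a small part of the window.

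Values at the edge of the rule were close on both sides. Just inside it, the bases common to both replicates ended 0 bp beyond the window at Parva, which encodes an adhesion protein, 3 bp beyond it at Susd5, 6 bp at Gjd2, a neuronal gap junction gene, and 7 bp at Hsf4, a lens heat shock factor. Just outside it, H2-Q10 was whole in replicate 1 and had 1999 bp in replicate 2. Pcdh15, needed in the hair cells of the ear, had 1998 bp in replicate 1 and was whole in replicate 2, and Hoxd10 was whole in replicate 1 and had 1994 bp in replicate 2. Epor, the erythropoietin receptor gene, had 1992 bp in replicate 1 and 1996 bp in replicate 2. Genes on either side of the rule can thus differ by a few bases.

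At most nearly whole promoters the missing bases lay inside the window alone. Among promoters that were not whole, 614 had at least 1801 bp covered in each replicate. In 471 of them (76.7%) both ends of the window were covered and only bases inside it were missing from one replicate or the other. These missing bases had a median total of 135 bp (46 to 329 bp). Cover of the 614 was lowest at the start, with 83.4% covered there in both replicates, against 95% at 500 bp upstream and 97.1% at 500 bp downstream. It was nearly as low at the upstream edge of the window, with 84.7%, and was 91.0% at the downstream edge. The other marked promoters as a whole also dipped at the start, with 33.4% covered there, 46.2% at 500 bp upstream and 59.5% at 500 bp downstream. By construction the 302 have no such dip.

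**Figure D1:**
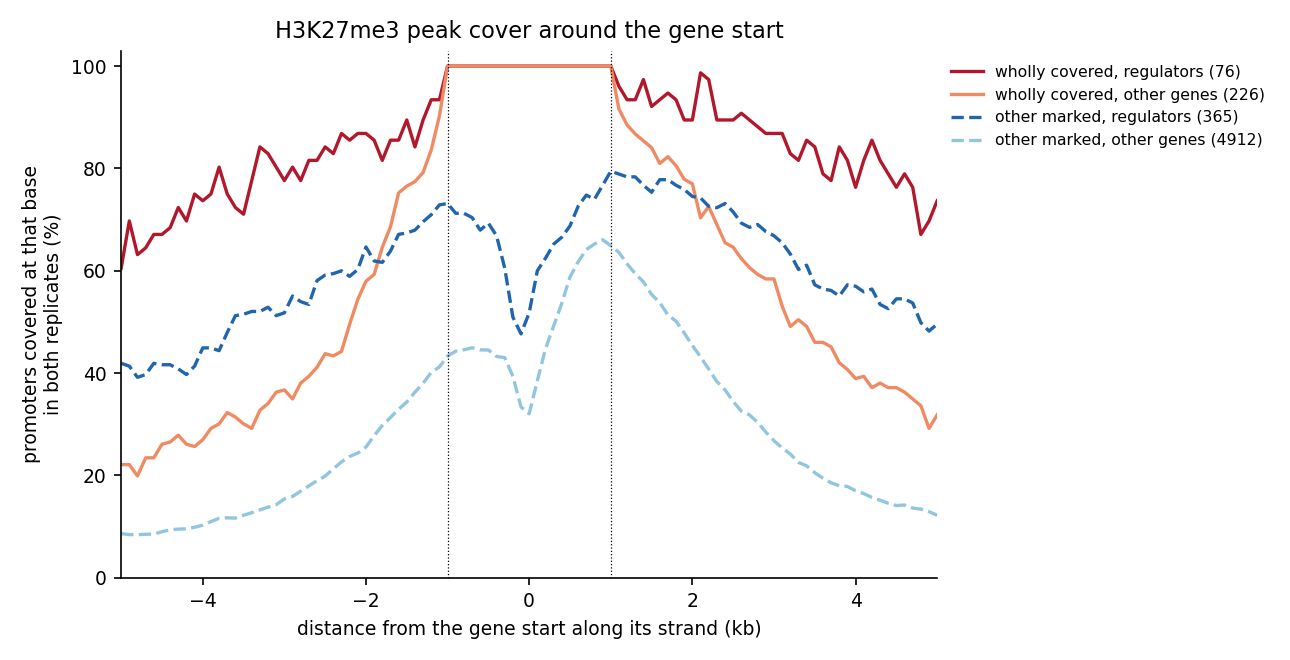
Share of promoters covered by peaks of both replicates at each distance from the gene start (kb, positive along the gene), for wholly covered promoters (solid lines) and other marked promoters (dashed lines), each split into transcription regulators and other genes; dotted lines bound the window. The solid lines are at 100% within the window by the rule, while the dashed lines dip at the start, and at 5 kb upstream 60.5% of wholly covered regulators were still covered, against 22.1% of the other wholly covered genes. Other marked regulators stood at 41.9% there, and the remaining other marked genes at 8.63%.

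Peak signal at the 302 promoters was high in both replicates. Signal is the value the authors' peak lists give each peak, in units that the sources used here do not explain, and the highest peak touching the window was taken. Wholly covered promoters had a median of 11.8 in replicate 1 (4.62 to 18.9) and 11.9 in replicate 2 (5.34 to 17.9), and other marked promoters had 7.56 and 7.52. The ratio of the medians was 1.56 in replicate 1 and 1.58 in replicate 2, so it differed little between the replicates. The groups overlapped widely, since other marked promoters reached 19.7 and 19.4. As signal and extent come from the same peaks, this is not independent of the rule. Set against long peaks alone the difference was smaller. Peaks at least as long as the window that held a wholly covered promoter had median signals of 11.8 and 11.8, those touching another marked promoter had 10.1 and 10.4, and those touching no marked promoter had 8.77 and 9.53. Both of the last kinds were also shorter than the peaks over the 302, with median lengths of 2823 bp and 2725 bp at other marked promoters and 2718 bp and 2688 bp elsewhere.

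Expressed as a percentile among the autosomal peaks of its own list and averaged over both lists, the signal rank had a median of 98.0 at wholly covered promoters and 89.2 at other marked promoters. In all, 277 of the 302 ranked at 90 or above in both replicates. Read from the rank, whole cover was absent below a mean rank of 70 and was found at 4.07% of marked promoters with ranks of 90 to 95. It reached 15.05% at ranks of 97 to 99 and 24.0% at 99 or above. Even among the highest ranks, most marked promoters were therefore not wholly covered.

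The replicates ranked the 302 alike, though less closely than the wider set. Spearman's rho of signal across them was 0.719 and Pearson's r was 0.728 (n = 302 promoters), against 0.864 and 0.862 across other marked promoters (n = 5277), whose signals span a wider range. Promoters within a replicate share its library, and neighbouring windows share peaks. The replicates lay within 1.2-fold of each other at 226 of the 302 (74.8%) and at least 1.5-fold apart at 6. Tet3, which encodes an enzyme that oxidises methylated cytosine, stood farthest out on one side, with 12.3 in replicate 1 and 6.14 in replicate 2. B230104I21Rik, with 5.12 and 9.54, and the tubulin gene Tuba8, with 4.62 and 8.36, stood farthest out on the other.

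**Figure D2:**
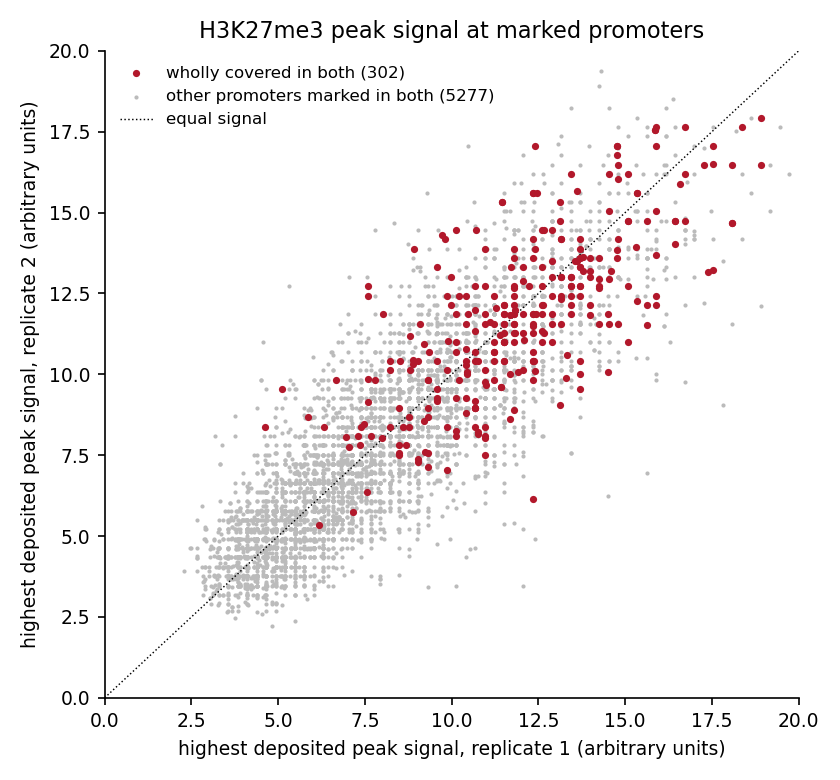
Highest deposited peak signal in each promoter window (arbitrary units), replicate 1 on the x axis and replicate 2 on the y axis, for the 302 wholly covered promoters (red) and the 5277 other marked promoters (grey), with a dotted line at equal signal. The red points lie mostly above 10 on both axes, inside the upper part of the grey cloud, with medians of 11.8 and 11.9 for the red and 7.56 and 7.52 for the grey.

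The highest ranks of all belonged to regulators and signals together with a few genes of differentiated cells. Hoxb7, a HOX gene, had a signal of 18.9 in replicate 1 and 17.9 in replicate 2, and Hoxb13, the last gene of its cluster, had 18.4 and 17.6. Gp1bb, which encodes a platelet receptor subunit, had 18.9 and 16.5. Wnt1, a ligand of midbrain and neural crest, had 17.5 and 17.1. These 4 were followed by Lhx5, Tnf, Lhx1, Dll4, Mlxipl and Hoxb3. Tnf, the inflammatory cytokine, had 16.7 and 17.6, and Mlxipl, a glucose-responsive regulator of the liver, had 16.7 and 16.2. At the other end stood Tuba8, Ppp1r27 with 6.18 and 5.34, B230104I21Rik, Afap1l1 with 7.16 and 5.75, and Upk3a, a bladder uroplakin gene, with 5.87 and 8.68.

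Regulators of transcription made up 76 of the 302 (25.2%) and 365 of the 5277 other marked promoters (6.92%). The 614 nearly whole promoters, which are among the 5277, lay between, with 97 regulators (15.8%), median signals of 10.7 in both replicates and a median rank of 96.8. Counted in each replicate alone, regulators were 21.5% of the promoters whole in replicate 1 and 22.7% of those whole in replicate 2. Of all 441 regulators marked in both replicates 17.2% were wholly covered, against the 5.41% of all marked promoters. Regulators had higher signal too, and the ranks come from the same peaks that chose the promoters. At ranks of 99 or above 32.6% of marked regulators were wholly covered and 19.4% of other genes, and at ranks of 97 to 99 the shares were 21.5% and 13.8%. Lower ranks had closer shares, with 9.26% and 7.21% at 95 to 97 and 5.17% and 4.01% at 90 to 95. At 80 to 90 they were 0% and 0.906%. Whether signal accounts for the share of regulators was not tested. Genes were put into 43 classes by their symbols, 28 of which held a wholly covered promoter, and each of the 10 regulator classes held at least 1.

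**Figure D3:**
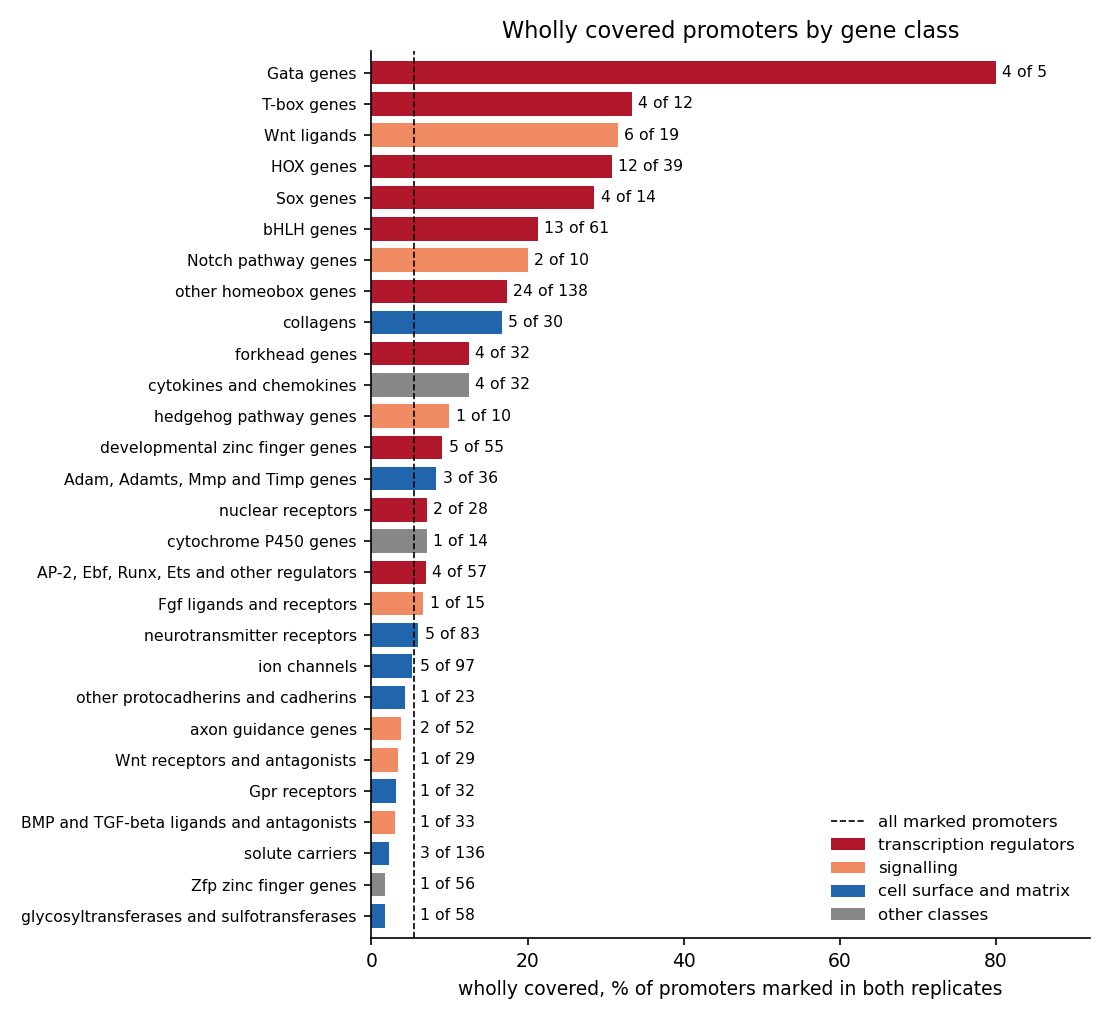
Wholly covered promoters as a percentage of the promoters marked in both replicates, for the 28 gene classes that hold any, with the numbers beside each bar; colours give the kind of class, and the dashed line is the 5.41% of all marked promoters. Regulator classes fill most of the upper part, with Gata genes at 80.0%, T-box genes at 33.3% and HOX genes at 30.8%, and Wnt ligands stand among them at 31.6%.

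HOX genes, which set position along the body axis, were wholly covered at 12 of 39 promoters (30.8%). They were Hoxa3, Hoxa5 and Hoxa11 in the Hoxa cluster, Hoxb1, Hoxb3, Hoxb7 and Hoxb13 in Hoxb, Hoxc4 and Hoxc12 in Hoxc, and Hoxd9, Hoxd11 and Hoxd12 in Hoxd. The start used is the outermost annotated 5′ end, which at Hoxa3 belongs to a long transcript and not to its usual promoter. The same holds for Hoxd3 and Hoxd4, which were not wholly covered. No cluster was covered at every start, and whole cover fell on 3 of 11, 4 of 10, 2 of 9 and 3 of 9 genes of Hoxa, Hoxb, Hoxc and Hoxd. All other 27 were marked, and among the least covered were Hoxc13 with 1097 bp in replicate 1 and 1265 bp in replicate 2, and Hoxa13 with 1191 bp and 1257 bp. The median signal rank of the wholly covered and the other genes was 99.8 and 99.7 in Hoxa, 99.9 and 99.8 in Hoxb, 98.9 and 98.8 in Hoxc, and 99.9 and 99.2 in Hoxd. Ranks this near the top of the scale can hide differences in signal: Hoxd11 and Hoxd12, in one peak, had 15.85 and 17.5 in replicates 1 and 2, against 9.47 and 12.7 at Hoxd8 and 13.4 and 12.7 at Hoxd13, which were partly covered. Hoxd10, just short of whole cover, had 15.3 and 15.0. High signal was also found at partly covered genes of Hoxa. Hoxa13, named above among the least covered, had 16.7 and 14.8, Hoxa7 had 18.1 and 14.7, and Hoxa2 had 14.3 and 19.4.

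The other homeobox genes were wholly covered at 24 of 138 marked promoters (17.4%). Lhx5 and Lhx1, LIM homeobox regulators of forebrain and of head and kidney, had signals of 18.1 and 16.5 and of 17.5 and 16.5 in replicates 1 and 2. Uncx, which patterns the vertebral precursors, had 15.1 and 16.2. Cdx2, needed for the trophectoderm and the hind body, had 14.8 and 16.5. Among the rest were Pax1, Pax3, Pax6 and Pax8, Nkx2-1, Nkx2-2, Nkx2-3 and Nkx6-2, Tlx2 and Tlx3, the pancreatic regulator Pdx1, and Otx2, Rax and Vax1 of the forebrain and eye. Genes of the class without a peak included Adnp and Crx.

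Basic helix-loop-helix genes were wholly covered at 13 of 61 marked promoters (21.3%). Neurod2, a gene of differentiating neurons, had signals of 16.6 and 15.9, and Npas4, which neuronal activity switches on, had 16.4 and 14.7. Bhlha9, a limb gene, had 13.6 and 15.7, and Hand1, needed in heart and trophoblast, had 13.97 and 13.6. The remaining 9 were Ascl2, Bhlhe23, Helt, Hes7, Myod1, Neurog3, Olig2, Ptf1a and Tal1, which between them act in muscle, blood, pancreas, placenta, spinal cord and the somite clock. Hes1, a target of Notch signalling, had no peak.

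Gata genes had the largest share of any class with a marked promoter, though in a small family, with 4 of 5 wholly covered. Gata2, a blood regulator, had signals of 14.8 and 13.6 in replicates 1 and 2. Gata4, Gata5 and Gata6, which act in endoderm and heart, had 10.4 and 10.4, 12.3 and 11.48, and 11.2 and 10.99. The exception was Gata3, a regulator of trophoblast and T cells, with 1940 bp and 1936 bp covered. Its signals of 14.2 and 11.6 lay above those of Gata4, so the 5 genes were not ordered by signal.

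T-box and Sox genes were wholly covered at 4 of 12 (33.3%) and 4 of 14 (28.6%) marked promoters. T, the mesoderm regulator Brachyury, had signals of 14.2 and 13.6, Tbx1 of the pharyngeal arches had 13.8 and 13.6, and Tbx5 of forelimb and heart had 13.6 and 13.5. Tbx15 had 12.6 and 11.3. These 4 lay in a narrow range of rank. Sox17, an endoderm regulator, had 10.96 and 13.9, and Sox10 of the neural crest had 11.8 and 13.9. Sox18 of the endothelium had 12.9 and 10.99, and Sox14 had 12.6 and 12.7. Sox2 and Sox15 had no peak, and neither did Tbx6 and Tbx10.

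Forkhead genes were wholly covered at 4 of 32 marked promoters (Foxl1, Foxd4, Foxl2 and Foxi3) and developmental zinc finger genes at 5 of 55 (Prdm12, Sp9, Egr2, Ovol1 and Ovol2). Foxl1 of the gut mesenchyme had signals of 13.4 and 16.2, and Foxi3, an ectodermal placode gene, had 7.596 and 9.15, the lowest mean rank of any wholly covered regulator. Egr2, which patterns the hindbrain, had 12.9 and 13.5. Of nuclear receptors 2 of 28 were wholly covered, Nr2e1 of neural stem cells and Esrrg. In the mixed class of AP-2, Ebf, Runx, Ets and related genes there were 4 of 57, namely Tfap2a of the neural crest, Skor2, Ebf2 and Nfatc2. The last 2 classes thus lay near the 5.41% of all marked promoters, with 7.14% and 7.02%.

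Among signalling genes 14 of 181 marked promoters were wholly covered (7.73%), and 6 of the 14 encode Wnt ligands. All 19 Wnt ligand genes were marked, and the 6 were 31.6% of them. Wnt1 led them, followed by Wnt10a with signals of 15.9 and 17.1, Wnt5a with 15.1 and 12.7, and Wnt11 with 13.7 and 13.3, and the others were Wnt2 and Wnt3. The least covered was Wnt8b, with 1048 bp in replicate 1 and 497 bp in replicate 2. Wnt receptors and antagonists had 1 of 29, the secreted antagonist Sfrp5, with 7.58 and 12.4.

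Other pathways had fewer. Of 10 marked Notch pathway genes 2 were wholly covered. Dll4, an endothelial Notch ligand, had 17.3 and 16.5, and Lfng, which modifies Notch in the somite clock, had 11.51 and 11.3. Shh, the only wholly covered hedgehog gene of 10 marked, had 13.6 and 13.5. The growth factor receptor gene Fgfr3, a brake on bone growth and the only one of 15 marked Fgf genes, had 17.5 and 13.2. Of BMP and TGF-beta ligands and antagonists Fstl4 alone was wholly covered, of 33. Of 52 marked axon guidance genes there were 2, Robo3 of commissural axons with 15.9 and 15.0 and Ntng2 with 13.7 and 14.2. As shares of marked promoters, Notch genes stood at 20%, hedgehog genes at 10% and Fgf genes at 6.67%. The BMP and axon guidance classes stood at 3.03% and 3.85%, beside the 5.41% of all marked promoters. With 1 or 2 wholly covered promoters in each class, no share is read as a departure from that background.

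Genes of the cell surface and matrix were wholly covered at 24 of 557 marked promoters (4.31%). Collagens had the highest share of these classes, at 5 of 30 (16.7%). Col2a1 of cartilage had signals of 15.9 and 12.4, Col12a1 had 13.7 and 13.6, Col14a1 had 13.7 and 12.4, and Col26a1 had 13.7 and 9.54, while Col9a2 was the remaining one. Ion channels had 5 of 97 (Kcna1, Scn4b, Kcns1, Kcnj6 and Cacna1e), and neurotransmitter receptors 5 of 83 (Sstr1, Drd5, Chrna3, Grm7 and Npy2r). Both classes, at 5.15% and 6.02%, lay near the 5.41% of all marked promoters. Solute carriers had 3 of 136: Slc32a1, which loads GABA into vesicles, had 15.6 and 12.1, the dopamine transporter gene Slc6a3 had 11.2 and 10.4, and Slc22a4 had 10.7 and 10.4. Metalloprotease genes had 3 of 36 (Mmp23, Mmp28 and Adamts5), and Pcdh7, Galnt6 and Gpr26 were the only ones of their classes.

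The group of other classes had 6 wholly covered promoters of 207 marked (2.90%). Of 32 marked genes taken as cytokines and chemokines by symbol there were 4, of which Il4ra and Il17rb encode receptors and Cxcl14 and Cxcl16 chemokines. Cyp24a1, which breaks down active vitamin D, had signals of 15.1 and 14.7. Zfp503 was the only one of 56 marked Zfp genes.

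The 15 classes without a wholly covered promoter held 180 marked promoters between them. Clustered protocadherins were the largest, with 0 of 53 marked, and the median cover of those 53 in the lesser replicate was 973 bp. Their median rank was 96.1, near the 96.97 of other marked regulators, so partial cover went with high signal there. Germline and meiosis genes had 0 of 26, retinoid pathway genes 0 of 13 and Polycomb subunits 0 of 10. None of the 21 genes counted in the pluripotency class was marked, against 26.8% of all genes. The class leaves out, however, genes that an earlier class took. One of them is Esrrb, a nuclear receptor gene partly covered in both replicates. At the 5.41% of all marked promoters, classes of these sizes would hold few wholly covered promoters. A count of 0 in any one of them is therefore not read as a departure from the background.

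Genes in no class made up 182 of the 302 (60.3%) and 76.0% of other marked promoters, and 4.34% of those marked were wholly covered. They ranked a little below the regulators, with median signals of 11.2 in replicate 1 and 11.1 in replicate 2, against 13.3 and 13.1 at wholly covered regulators. Symbols do not capture every regulator, and Mlxipl and Hsf4 are among these 182. After Gp1bb, Tnf and Mlxipl the highest ranks included those of Gm28308, Npdc1, Bcan, Ltb, Duox2 and Duoxa2. Bcan encodes a brain matrix proteoglycan, and the lymphocyte cytokine gene Ltb had the same signals, 15.3 and 15.6. Duox2 and Duoxa2, which encode a hydrogen peroxide source of the thyroid and its maturation factor, start back to back within one peak of 14.8 and 17.1.

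Cover continued well past the window. The uninterrupted run of bases common to both replicates that holds the start had a median of 3971 bp over the 302 (2053 to 13774 bp). Its median reach was 2121.5 bp downstream and 1737.5 bp upstream, and it was longer downstream in 181 and upstream in 120. Regulators among them had a median run of 5139.5 bp, against 3714.5 bp at the other wholly covered genes. The longest lay over Prdm12, a regulator of pain-sensing neurons (13774 bp), Lhx1 (12857 bp), Tlx3 (12098 bp), Fgfr3 (12030 bp), Neurod2 (11346 bp) and Hoxa3 (10867 bp). The start at Hoxa3 is that of a long transcript, as stated above. Next in length were the runs at Wnt5a, Sox10, Ntng2 and Bcan. Prdm12 was covered mostly upstream, over 8468 bp, and Fgfr3 mostly downstream, over 10382 bp, so the longest runs had no common direction.

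**Figure D4:**
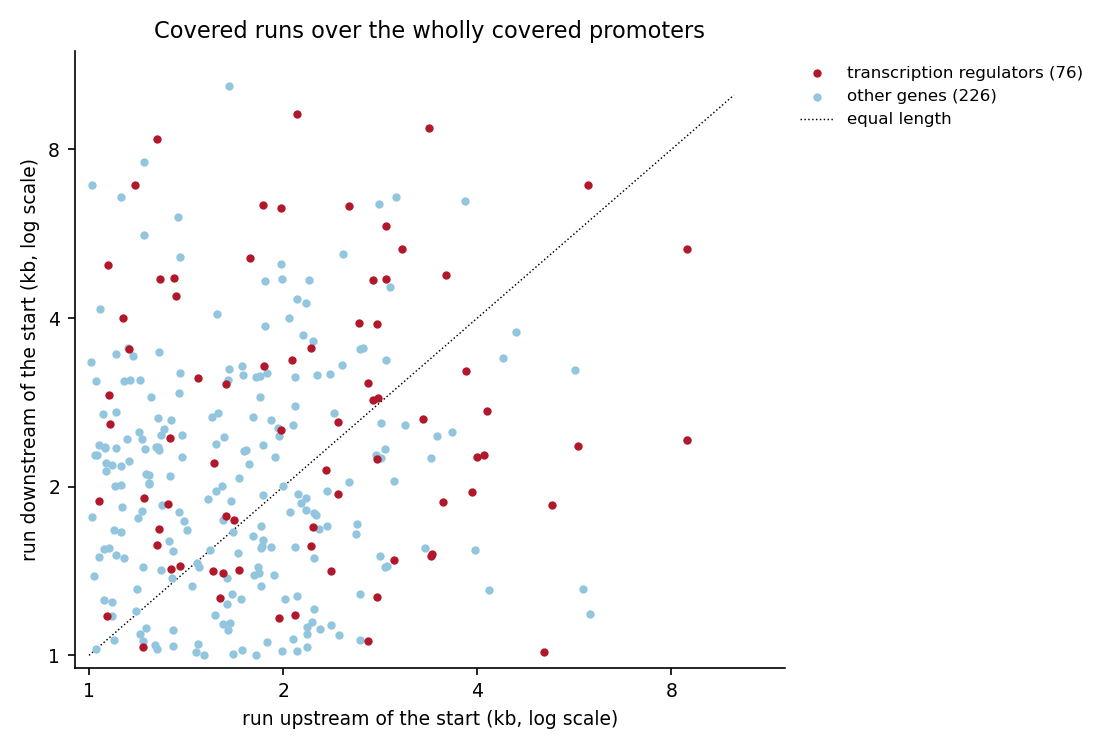
Length of the uninterrupted run common to both replicates upstream (x axis, kb, log scale) and downstream (y axis, kb, log scale) of each wholly covered gene start, for 76 transcription regulators (red) and 226 other genes (blue), with a dotted line at equal length. More points lie above the line (181) than below it (120), and many stop short of 2 kb on at least 1 side.

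Common runs at least as long as the window numbered 3315, and 294 of them (8.87%) held a wholly covered promoter. Among these 294, 8 held 2 genes each, so the 302 are not all separate observations. They joined Hoxd11 with Hoxd12, Hoxa3 with Gm28308, Nr2e1 with Ostm1, Duox2 with Duoxa2, Cyp24a1 with Pfdn4, Il17rb with Chdh, Sowaha with Gm9945 and Abhd15 with Trp53i13. In such a pair both genes count for the same cover: Ostm1, a lysosomal gene, lies in the 5881 bp run of Nr2e1. By chromosome, 42 of the 302 lay on chromosome 2 (8.90% of its marked promoters) and 39 on chromosome 11 (7.96%), while chromosome 8 had the lowest share (2.49%).

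Wholly covered genes were shorter than other marked genes, and more often covered from end to end. Their median length was 14758 bp, against 26958 bp for other marked genes and 15444 bp for genes without a peak. The 226 wholly covered genes that are not regulators had a median of 16858 bp, above that of genes without a peak. All bases of the gene were common to both replicates' peaks in 33 of the 302 (10.9%) and in 39 of the 5277 (0.739%). Among the 33 were Neurod2, Tlx3, Hand1, Ascl2, Neurog3, Hoxb7, Wnt1, Tnf and Ltb. At least 50% of the gene was covered in 148 of the 302 (49%) and 15.2% of other marked genes. Regulators were shorter still, with a median of 6445 bp when wholly covered and 9130 bp when otherwise marked, and their median covered share was 90.8% against 58.5%. Gene length was not used by the rule, whereas covered bases near the start are also bases of the gene.

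CpG content placed the 302 in the middle of the range. The ratio of observed to expected CpG over 500 bp on each side of the start had a median of 0.603 at wholly covered promoters (quartiles 0.467 and 0.70), 0.638 at other marked promoters (0.443 and 0.779) and 0.502 at promoters without a peak (0.171 and 0.775). The difference of −0.035 between wholly covered and other marked promoters was small beside these spreads. Its direction depended on the processing, since it was 0.00171 with the relaxed peak lists and 0.0309 with 2.5 kb windows. Within the regulators the medians were 0.654 and 0.689, and within other genes 0.581 and 0.630.

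The narrower spread was clearer than the shift over all genes, but it lay mainly in genes that are not regulators. Their quartiles were 0.463 and 0.679 when wholly covered and 0.435 and 0.777 when otherwise marked. Regulators had quartiles of 0.525 and 0.768 and of 0.568 and 0.810, about equally far apart. The spread was not tested under other settings. Ratios between 0.4 and 0.7 were held by 61.6% of wholly covered promoters and 40.1% of other marked ones, whereas ratios of at least 0.7 were held by 25.2% and 39.0% and ratios under 0.4 by 13.2% and 20.9%. Read the other way, 8.35% of marked promoters with ratios of 0.4 to 0.5 were wholly covered, and 8.21% with ratios of 0.6 to 0.7. The share was 2.70% at ratios under 0.2 and 1.94% at ratios of 0.9 or more. Among regulators it was higher in every bin, up to 25% at ratios of 0.4 to 0.5, although some of these bins hold few genes. GC content was alike, with medians of 59.0% and 59.2%.

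**Figure D5:**
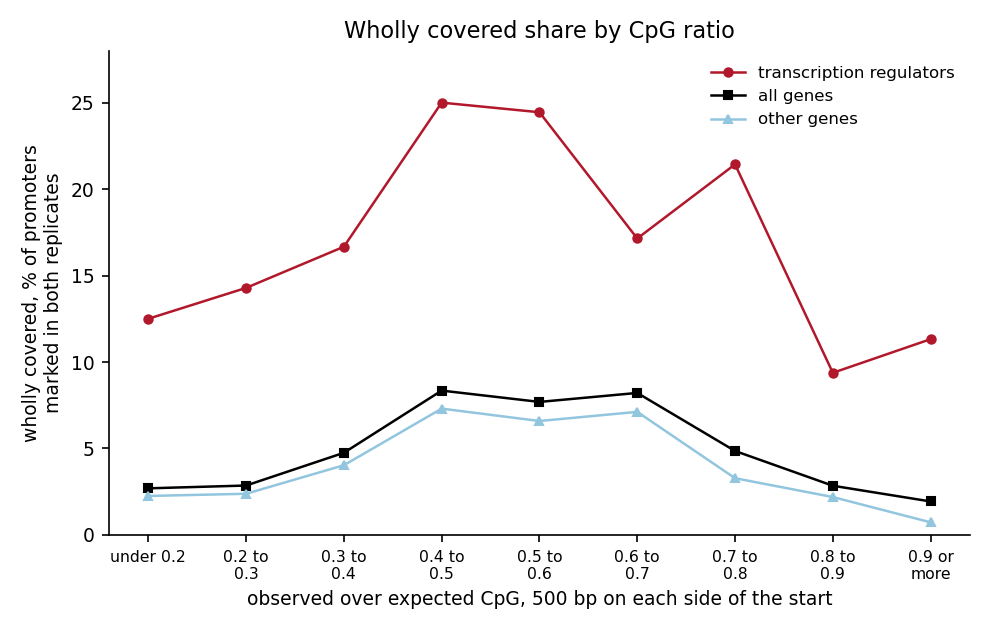
Wholly covered promoters as a percentage of marked promoters (y axis) in 9 bins of the CpG ratio around the start (x axis), for transcription regulators (red), other genes (blue) and all genes (black). All 3 lines peak at ratios of 0.4 to 0.5 and are lower at both ends; the lowest 2 regulator bins hold 16 and 14 marked genes.

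A CpG-rich stretch, meaning overlapping 200-base windows with at least 50% GC and a CpG ratio of at least 0.6, was missing near the start at 15 of the 302 (4.97%), at 13.5% of other marked promoters and at 41.2% of those without a peak. Where lengths were counted over all promoters, the medians were 873.5 bp and 865 bp for wholly covered and other marked ones. Hoxa5 (0.996), Ovol1 of epithelia (0.986), Nkx6-2 of oligodendrocytes (0.978) and Tlx3 (0.962) had the highest ratios. A930004D18Rik (0.0725), Lrg1 (0.0746), the sodium channel gene Scnn1a (0.107), the leukotriene synthase gene Ltc4s (0.132) and Tet3 (0.135) had the lowest. Even so the last 5 were wholly covered, with the run over the start reaching 2719 to 5676 bp. The 250 bases printed above hold 3 CpG at A930004D18Rik and 1 at Lrg1, and they are a small part of those runs. All ratios are those around the outermost annotated 5′ end, and whether it is the start in use was not tested. Sox10, with a ratio of 0.166, lay under one of the longest runs, at 9610 bp.

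Soft-masked repeats made up a median of 7.82% of the window at wholly covered promoters, 10.8% at other marked promoters and 15.5% at those without a peak. Within the 300 bp from 250 bp upstream of the start to 50 bp downstream, searched on both strands, the letters TATAAA were found at 10.3% of wholly covered, 8.03% of other marked and 12.7% of all promoters. CCAAT was found at 37.4%, 31.9% and 38.6%, and GGGCGG, the core of the Sp1 motif, at 49.3%, 57.5% and 43.7%. A match in so short a sequence is not a site.

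Neighbouring starts were also counted. A protein-coding start on the opposite strand pointed away within 1 kb at 2.65% of wholly covered promoters, 3.81% of other marked ones and 8.53% of those without a peak. Starts of noncoding RNA genes lay within 1 kb at 12.3%, 8.79% and 7.28%. Among wholly covered regulators 22.4% had one, and among other marked regulators 13.2%, which is 17 of 76 and 48 of 365.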

How the data were processed

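H3K27me3 ChIP-seq peak lists of 2 biological replicates were read as deposited by the authors, in narrowPeak form on mm10, per the README files and file headers. The main list of each replicate is its pseudoreplicated list, called on that replicate alone. The sources used here do not give the aligner, the peak caller, its thresholds or whether a control entered, and the read depth is unknown. Each peak carries the authors' deposited signal value, whose scaling is not stated, and a deposited −log10 p and −log10 q. Signal served only to rank and describe peaks within a list.

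Peaks were merged and counted over the window of 1 kb on each side of each autosomal protein-coding gene's outermost 5′ end (GENCODE mouse release 21). CpG, GC, soft-masked bases and motifs were computed from the GRCm38.p6 sequence, whose chromosome lengths match the annotation. Each gene counted in the first of 43 symbol classes that took it. Genes, windows and lists were chosen with earlier results of these data known. Named genes followed a rule: highest and lowest signal rank, top members and least covered genes of each class, extremes of CpG, run length, edge distance and replicate difference. Further members of classes are listed by name alone. The coverage code was tested on simulated data. Alternatives were other windows, cover of 95%, a −log10 q of at least 2, relaxed, replicated and pooled lists, any transcript start, each replicate left out, overlapping windows counted once, CpG over 1 kb on each side, and a comparison without HOX and clustered protocadherin genes. No p-value was computed, since a single group has no comparison of samples. Python 3.11.15, NumPy 2.4.6, SciPy 1.17.1 and Matplotlib 3.10.9 were used.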

Additional observations from a re-analysis of the deposited data

How the results depend on the processing

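The number of wholly covered promoters was 699 with windows of 0.5 kb on each side, 30 with 2.5 kb, 536 when 95% of the window sufficed, and 781 with the replicated list as with the list of both libraries together. As a share of marked promoters these were 15.2%, 0.456%, 9.61%, 11.02% and 11.01%. The relaxed lists gave 333 (4.69% of marked promoters), and only 282 of the 302 were among these. With a single replicate used the number was 370 to 553 and the share 5.74% to 9.29%. The higher value of each is that of replicate 1 alone.

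The difference in median CpG ratio reversed to 0.0309 with 2.5 kb windows and to 0.00171 with the relaxed lists. It was −0.0675 with 0.5 kb windows, −0.0333 at 95% cover, −0.00499 with the replicated list, −0.00546 with both libraries together, −0.0565 with any transcript start and −0.020 with CpG over 1 kb on each side, and −0.0179 to −0.0157 with a single replicate. The cause was not tested.

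Regulators made up 16.5% with 0.5 kb windows, 56.7% with 2.5 kb (of 30), 21.1% at 95% cover, 23.7% with the relaxed lists, 18.8% with the replicated list and with both libraries together, 22.5% with any transcript start, 22.1% without HOX and clustered protocadherin genes, and 21.5% to 22.7% with a single replicate. The difference in signal rank was 7.06 with 0.5 kb windows, 10.3 with 2.5 kb, 5.97 with the relaxed lists and 10.2 to 12.0 with a single replicate. Besides the 2 reversals, 35 of the 58 values under alternatives moved, counts by over 1.5-fold and other values by more than the spread between the replicates taken alone, and 21 did not.

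No paired analysis was possible because the series has a single group. Unknown read depth limits every statement on missing bases, since short gaps in a peak can come from few reads.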
